A study of Mus musculus with 6 samples.

Results

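Mitochondria make a small set of respiratory-chain proteins on ribosomes of their own, and the protein parts of these mitoribosomes are encoded by nuclear genes whose symbols begin with Mrpl (large subunit) or Mrps (small subunit). Each gene whose symbol begins with Mrpl or Mrps and a digit was taken as a member, and symbols marked as pseudogenes were left out. The rule found 78 genes among the 19245 gene symbols of the table, 49 of them Mrpl and 29 Mrps, and it used no measured value. The small subunit of a ribosome reads the messenger RNA and the large subunit joins the amino acids, so both are needed in a fixed proportion. Mammalian mitoribosomes keep proteins with bacterial homologs and have gained others that bacteria lack. The heart depends on oxidative phosphorylation, and human mutations in MRPL3, MRPL44 and MRPS22 are known to cause cardiomyopathy.

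RNA was sequenced from the ventricles of C57BL/6 mouse embryos at embryonic day 17.5. The 3 labelled knockout libraries came from embryos carrying floxed Esrra and Esrrg together with Cre recombinase under the Nkx2-5 promoter, which is active in the early heart lineage. The 3 control libraries, labelled wild type, came from Cre-negative embryos that carry the floxed alleles too. Each library pooled 2 hearts, and Cre was present in the labelled knockouts alone, so effects of Cre and of the deletions cannot be told apart. Esrra and Esrrg encode estrogen-related receptors (ERR) alpha and gamma, nuclear receptors known as regulators of mitochondrial genes.

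Libraries held 39621555 to 86895519 sequenced reads and 12807221 to 32663838 estimated counts, the deepest being knockout replicate 1. Esrra fell from 75.8 ± 6.57 to 42.9 ± 1.63 CPM (counts relative to library size; SD, n = 3 in each group), a log2 fold change of -0.83, but Esrrg rose from 81.7 ± 2.07 to 115.6 ± 5.29 CPM, a log2 fold change of 0.50. The edgeR quasi-likelihood test gave adjusted p of 3.67e-07 and 2.22e-06 (Benjamini-Hochberg over 14290 genes). Whole transcripts were counted, floxed exons or not, so these values are no measure of the deletion itself, and because Esrrg went against its label the knockouts are named by their label throughout. Their paralog Esrrb, which was not targeted, rose by 1.17 on the log2 scale to 29.1 CPM, and Nkx2-5 fell from 69.1 to 53.7 CPM. Genes of the Y chromosome summed to 0.0567 and 0.167 CPM of the raw library total in control replicates 1 and 3 and to 112.2 to 323.9 CPM elsewhere, and Xist was near 0 only in knockout replicate 1, so the embryos' sexes were not balanced between the groups. Reads lying within introns made up 36.6% to 38.8% of control and 39.3% to 42.1% of labelled knockout libraries. The part of these differences in the results was not tested.

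Mitoribosomal protein RNAs were lower in the labelled knockout ventricles for most members of both subunits. Of the 78 members, all of which passed the filter on low counts, 67 (85.9%) fell at an adjusted p under 0.05 by edgeR, and none rose, also at an unadjusted p under 0.05 and in DESeq2 and limma-voom. Over all 14290 genes tested, 44.4% passed the threshold, 22.0% as lower and 22.4% as higher. By subunit, 43 of 49 Mrpl genes and 24 of 29 Mrps genes fell. The median log2 fold change was -0.41 for Mrpl and -0.47 for Mrps, and 0.00773 over all genes. In 66 members every labelled knockout library lay below every control library, which held for 26.9% of all genes. The fall was moderate: only 3 members fell at least 2-fold (Mrps35, Mrps36 and Mrpl42), against 3.21% of all genes. In a fit with the Y-linked level as a covariate, 31 Mrpl and 17 Mrps genes fell, against 12.4% of all genes. In that fit 3404 genes passed in either direction. Leaving out the 3 libraries near 0 for Y-linked genes or Xist kept control replicate 2 as the only control. The median log2 fold change was then -0.392 for Mrpl and -0.436 for Mrps. No member rose in either fit.

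**Figure D1:**
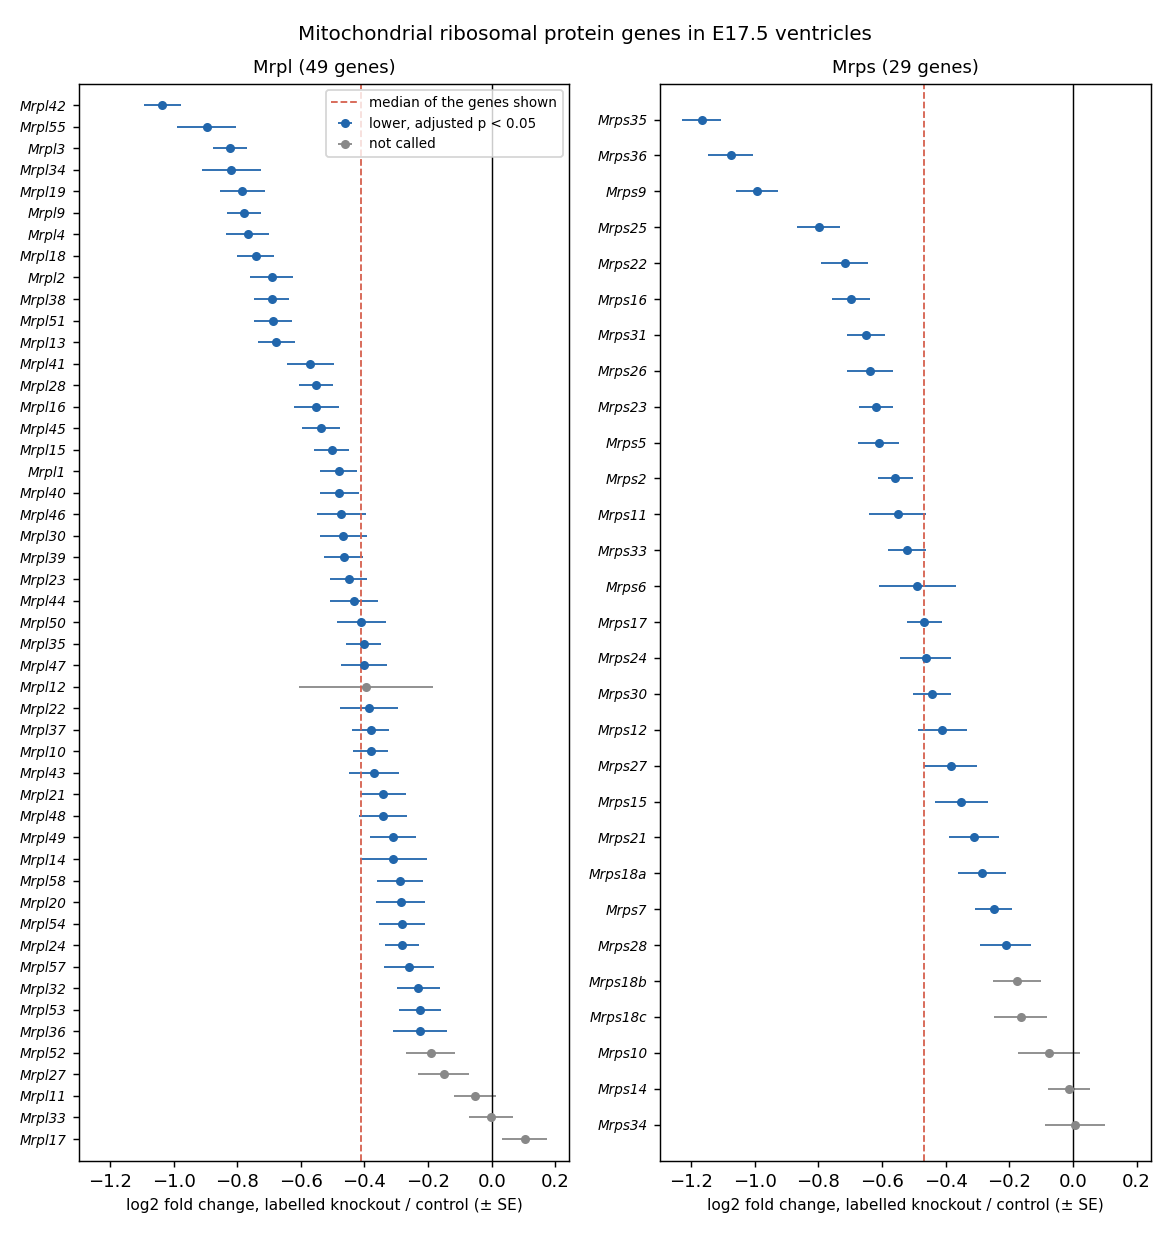
Log2 fold change (x axis, labelled knockout over control, ± SE from edgeR) of each of the 49 Mrpl genes (left) and 29 Mrps genes (right), ordered by size, with the median of each panel as a dashed line. Blue points passed an adjusted p of 0.05 and grey points did not; only Mrpl17 and Mrps34 lie to the right of 0.

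Most members were lower in each of the labelled knockout libraries. The median member stood at 103%, 98.0% and 99.3% of its control mean in control replicates 1, 2 and 3, and at 70.8%, 76.1% and 74.1% in knockout replicates 1, 2 and 3. The lowest control value of a gene was undercut by 72 members in knockout replicate 1, by 72 in replicate 2 and by 69 in replicate 3. The same count was not made over all genes, so these numbers have no background to be set against. The median coefficient of variation of a member was 4.51% among controls and 6.21% among labelled knockouts. In bulk ventricles, fewer cells of a type and less RNA per cell cannot be told apart.

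Promoters were read for the members as a group, most of which fell. RefSeq promoters (build GRCm38.p6, 250 bases before the start and 50 after) were found for 69 members and 10945 tested genes. A single promoter was read per gene. The windows of some members, Mrpl20, Mrps21 and Mrps23 among them, do not cover the start of the gene as counted. They were searched on both strands for the ERR element (TNAAGGTCA), its core (AAGGTCA, which the full element contains), the NRF1 motif (GCGCANGCG), an ETS core (CCGGAAGT) and the YY1 motif (AANATGGCG); NRF1, ETS factors and YY1 are known activators of nuclear genes for mitochondrial proteins. The ERR element was in 0 of 69 member promoters and in 0.685% of all promoters. The core was in 4 members, Mrps21 among them (5.80%, against 3.02% of all). NRF1 letters were in 16 members (23.2%, against 13.3%), ETS letters in 11 (15.9%, against 7.83%) and YY1 letters in 11 (15.9%, against 5.06%). The median log2 fold change was -0.39 in the 16 with NRF1 letters and -0.45 in the other 53, -0.38 with ETS letters and -0.44 without, -0.38 with YY1 letters and -0.46 without. Below are a member that fell with NRF1 letters (Mrps9) and one with the same motif that was not called (Mrpl17). Also given are one that fell with ETS letters (Mrpl3) and one with ETS and YY1 letters that was not called (Mrpl27). The last is Mrps11, which fell, has YY1 letters and starts close to Mrpl46, a member on the other strand. They were chosen after their values were seen. Each runs 5′ to 3′ on the gene's strand from 200 bases before the start, with motif letters on either strand in capitals.
Mrps9, chr1:42851033-42851262, plus strand: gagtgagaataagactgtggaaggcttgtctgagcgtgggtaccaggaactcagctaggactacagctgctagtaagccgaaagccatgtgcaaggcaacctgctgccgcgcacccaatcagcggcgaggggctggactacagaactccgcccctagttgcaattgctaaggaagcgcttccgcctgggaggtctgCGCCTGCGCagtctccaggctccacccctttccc
Mrpl17, chr7:105811058-105811287, minus strand: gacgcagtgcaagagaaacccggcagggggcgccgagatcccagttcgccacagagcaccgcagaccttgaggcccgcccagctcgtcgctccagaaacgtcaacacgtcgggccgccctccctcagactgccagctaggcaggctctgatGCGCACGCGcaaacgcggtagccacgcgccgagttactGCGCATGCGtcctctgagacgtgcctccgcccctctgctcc
Mrpl3, chr9:105053068-105053297, plus strand: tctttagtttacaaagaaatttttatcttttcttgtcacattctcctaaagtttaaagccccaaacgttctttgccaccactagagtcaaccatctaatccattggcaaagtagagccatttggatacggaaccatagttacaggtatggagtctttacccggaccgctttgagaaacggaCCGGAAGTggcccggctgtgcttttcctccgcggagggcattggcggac
Mrpl27, chr11:94653591-94653820, plus strand: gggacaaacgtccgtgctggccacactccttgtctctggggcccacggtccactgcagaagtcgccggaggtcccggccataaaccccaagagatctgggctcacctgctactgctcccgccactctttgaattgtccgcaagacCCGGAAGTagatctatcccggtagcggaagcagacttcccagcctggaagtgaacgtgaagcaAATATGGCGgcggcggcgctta
Mrps11, chr7:78782931-78783160, plus strand: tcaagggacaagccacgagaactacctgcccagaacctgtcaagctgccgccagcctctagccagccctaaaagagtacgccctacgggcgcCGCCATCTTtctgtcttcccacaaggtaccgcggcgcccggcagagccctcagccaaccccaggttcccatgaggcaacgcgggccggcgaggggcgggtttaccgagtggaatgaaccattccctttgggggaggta
The NRF1 letters of Mrps9 begin 4 bases before the start, and Mrpl17 holds that motif at 49 and at 11 bases before its start. The YY1 letters of Mrps11 begin 108 bases before its start. They lie within Mrpl46, as does most of the window before the Mrps11 start. A match of letters is not evidence of a bound site, and its absence from this window says nothing of the factor.

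Mrps11 and Mrpl46 are a divergent pair, one gene of each subunit, whose RefSeq starts lie 42 bases apart. Mrps11 stood at 12.6, 13.8 and 12.97 CPM in control replicates 1 to 3 and at 8.91, 8.30 and 9.47 CPM in knockout replicates 1 to 3. Mrpl46 stood at 20.9, 18.6 and 18.4 CPM in controls and at 13.9, 13.7 and 14.2 CPM in labelled knockouts. Both fell without overlap between the groups, by log2 fold changes of -0.55 (SE 0.0899) and -0.47 (SE 0.0767), with adjusted p of 0.000276 and 0.000262 by edgeR. Their exons share 173 bases on opposite strands in GENCODE, but the RefSeq transcripts that were counted do not overlap. Whether any reads of one were assigned to the other was not tested. In all, 22 members had a gene starting within 500 bases on the other strand, and for 20 of them that partner was no member. Of the 19 partners tested, 6 fell, 1 rose and 12 were not called, and their median log2 fold change was -0.07. Among all genes tested 22.0% fell and 22.4% rose, with a median of 0.00773. The 20 members beside such partners had a median of -0.39, and 18 of these members fell. A partner that rose beside a member that fell was Fau, a gene of a cytosolic ribosomal protein, next to Mrpl49.

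Among the large-subunit genes the lowest fold changes belonged to Mrpl42, Mrpl55, Mrpl3, Mrpl34 and Mrpl19. Mrpl42, a protein of the large subunit without a bacterial homolog (mm10 chromosome 10, 95480806 to 95501927), stood at 120.1, 114.1 and 118.1 CPM in controls and at 52.7, 62.4 and 58.0 CPM in labelled knockouts. All labelled knockouts were far below all controls, and knockout replicate 1 was the lowest. It fell 2.05-fold, at log2 fold change -1.03 (SE 0.0577; adjusted p 1.66e-08 by edgeR). It was also the member with the highest control level per length, 63.1 RPKM, and came second to Mrps21 in the labelled knockouts, at 34.4 RPKM.

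Mrpl55, which takes the place of a bacterial large-subunit protein, stood at 20.9, 25.5 and 23.4 CPM in controls and at 11.5, 12.4 and 13.6 CPM in labelled knockouts. Mrpl3, a homolog of a bacterial protein close to the catalytic centre, stood at 61.6, 56.6 and 59.1 CPM in controls and at 33.8, 34.1 and 32.5 CPM in labelled knockouts. Neither gene's groups overlapped, and Mrpl3 was the tighter of the pair within each group. Their log2 fold changes were -0.90 (SE 0.0915) and -0.82 (SE 0.0536), with adjusted p of 4.95e-06 and 7.31e-08 by edgeR. Mrpl34 stood at 34.6, 29.7 and 30.9 CPM in controls and at 16.2, 20.8 and 18.0 CPM in labelled knockouts. Mrpl19 stood at 42.2, 40.3 and 39.2 CPM in controls and at 21.7, 23.3 and 25.99 CPM in labelled knockouts. These homologs of bacterial large-subunit proteins were lower in every labelled knockout, by log2 fold changes of -0.82 (SE 0.0914) and -0.78 (SE 0.0711). The adjusted p was 1.13e-05 for Mrpl34 and 1.68e-06 for Mrpl19 by edgeR. Mrpl19 shares 1962 exon bases with Gcfc2 on the opposite strand. Mrpl30, second in control level among Mrpl genes at 28.99 RPKM, stood at 59.6, 53.8 and 54.5 CPM in controls and at 37.3, 46.0 and 39.4 CPM in labelled knockouts. It fell by 0.47 on the log2 scale (SE 0.0747; edgeR adjusted p 0.000240), with no overlap of the groups. The other Mrpl genes that fell had log2 fold changes from -0.78 (Mrpl9) to -0.23 (Mrpl36). Mrpl36 was the only one of the 43 whose groups overlapped, with an adjusted p of 0.0434 by edgeR, and its call was lost in 10 of 18 other fits, DESeq2 among them (adjusted p up to 0.911).

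Among the small-subunit genes the lowest were Mrps35, Mrps36, Mrps9, Mrps25 and Mrps22. Mrps35, a small-subunit protein without a bacterial homolog (mm10 chromosome 6, 147042770 to 147070902), had the lowest fold change of all members. It stood at 40.9, 37.8 and 40.8 CPM in controls and at 17.7, 17.5 and 18.1 CPM in labelled knockouts. The labelled knockouts lay within 1 CPM of each other and all far below the controls. It fell 2.25-fold, at log2 fold change -1.17 (SE 0.0606; adjusted p 8.59e-09 by edgeR). Mrps36 (mm10 chromosome 13, 100735940 to 100744659) bears a ribosomal name, but its protein is known as a part of the oxoglutarate dehydrogenase complex and is not seen in mitoribosome structures. It stood at 36.3, 31.1 and 33.6 CPM in controls and at 15.6, 16.5 and 16.1 CPM in labelled knockouts. Again the groups were wide apart, and the log2 fold change was -1.08 (SE 0.0710; adjusted p 8.26e-08 by edgeR). Annotated pseudogenes of Mrps36 may share reads with it, and their part was not tested.

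Mrps9, a homolog of a bacterial protein of the small-subunit head, stood at 53.4, 49.3 and 52.6 CPM in controls and at 24.9, 28.8 and 24.9 CPM in labelled knockouts. Mrps25, which has no bacterial homolog, stood at 37.7, 39.9 and 36.6 CPM in controls and at 20.4, 23.4 and 22.2 CPM in labelled knockouts. Both were lower in every labelled knockout library, by log2 fold changes of -0.99 (SE 0.0662) and -0.80 (SE 0.0671), with adjusted p of 8.94e-08 and 8.29e-07 by edgeR. Mrps25 shares 4590 exon bases with Nr2c2 on the opposite strand, and whether the counting used strand is not given in the sources used here. Mrps22, one of the genes tied to human cardiomyopathy, stood at 32.1, 27.9 and 29.5 CPM in controls and at 17.2, 18.8 and 18.9 CPM in labelled knockouts. It fell by 0.72 on the log2 scale (SE 0.0726; edgeR adjusted p 4.56e-06), with the groups well apart. Mrps21 and Mrps16, homologs of bacterial proteins, had the highest control levels per length of the Mrps genes, at 39.2 and 21.6 RPKM. Mrps16 stood at 35.5, 33.6 and 33.2 CPM in controls and at 20.6, 21.2 and 21.4 CPM in labelled knockouts. Mrps21 stood at 48.9, 41.3 and 43.6 CPM in controls and at 32.6, 39.5 and 37.0 CPM in labelled knockouts. Mrps16 fell clearly, by 0.70 on the log2 scale (SE 0.0597; edgeR adjusted p 1.01e-06), while the groups of Mrps21 nearly met. Mrps21 fell by 0.31 (SE 0.0793, adjusted p 0.00650 by edgeR), and its call was lost with the Y-linked covariate (adjusted p 0.426) and without the 3 libraries near 0 (adjusted p 0.384). The remaining Mrps genes that fell had log2 fold changes from -0.65 (Mrps31) to -0.21 (Mrps28, adjusted p 0.0480 by edgeR). The Mrps28 call was lost in 13 of 18 other fits, DESeq2 and upper-quartile scaling among them, with adjusted p of up to 0.586.

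**Figure D2:**
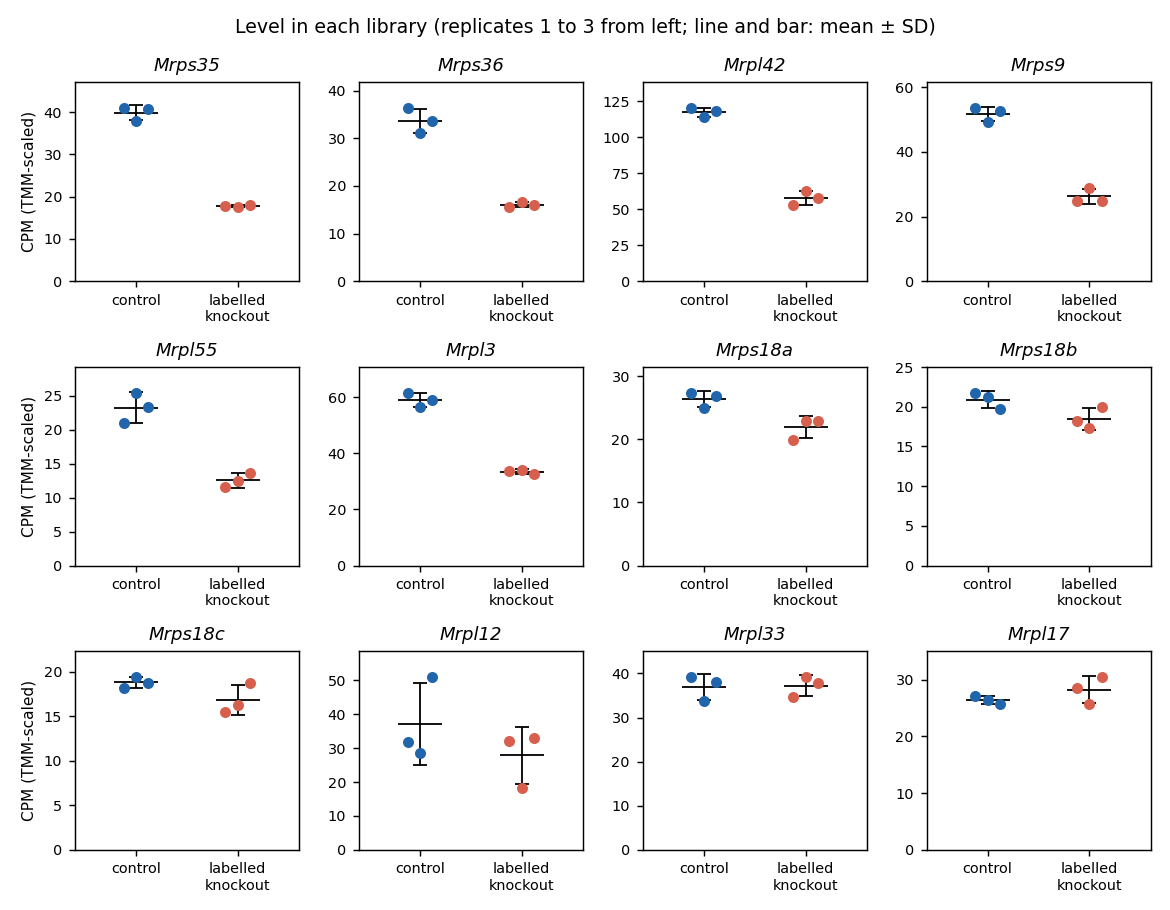
Level in TMM-scaled CPM (y axis, from 0) of 12 members in each control (blue) and labelled knockout (red) library, with the mean and SD (n = 3) in black. The groups are apart in Mrps35, Mrps36, Mrpl42, Mrps9, Mrpl55, Mrpl3 and Mrps18a, and overlap in Mrps18b, Mrps18c, Mrpl12, Mrpl33 and Mrpl17.

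The 3 Mrps18 paralogs descend from one bacterial small-subunit protein, and known structures place the product of Mrps18a in the large subunit and those of Mrps18b and Mrps18c in the small. Mrps18a stood at 27.4, 24.99 and 26.8 CPM in controls and at 19.9, 22.8 and 23.0 CPM in labelled knockouts. Mrps18b stood at 21.8, 21.2 and 19.7 CPM in controls and at 18.2, 17.3 and 19.96 CPM in labelled knockouts. Mrps18c stood at 18.1, 19.4 and 18.8 CPM in controls and at 15.5, 16.2 and 18.7 CPM in labelled knockouts. Mrps18a had groups that did not overlap, while knockout replicate 3 of the other paralogs lay within the control range. Mrps18a fell by 0.29 on the log2 scale (SE 0.0744; edgeR adjusted p 0.00728), a call lost with the Y-linked covariate (adjusted p 0.373), without the 3 libraries near 0 (0.432) and with GC and length trends removed (0.0530). Mrps18b and Mrps18c had log2 fold changes of -0.18 (adjusted p 0.0776 by edgeR) and -0.16 (adjusted p 0.132), and without knockout replicate 3 both passed, at adjusted p of 0.0335 and 0.0282. Mrps18b shares 638 exon bases with Gm16279 on the opposite strand, and Mrps18c shares 250 with Gm43511 on the same strand. No such overlap was found for Mrps18a. The differences between the paralogs' fold changes, and the part of these overlaps in them, were not tested.

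In all, 11 members did not pass the test. Mrpl17, a homolog of a bacterial protein, stood at 27.1, 26.5 and 25.7 CPM in controls and at 28.6, 25.7 and 30.5 CPM in labelled knockouts, a log2 fold change of 0.10 (SE 0.0703, adjusted p 0.258 by edgeR). Its groups overlapped, and its control level per length was the lowest of all members, at 1.41 RPKM. Mrpl33 stood at 39.1, 33.6 and 38.0 CPM in controls and at 34.6, 39.2 and 37.8 CPM in labelled knockouts, with means nearly equal at 36.9 and 37.2 CPM. Mrps34, which has no bacterial homolog, stood at 11.9, 14.2 and 13.1 CPM in controls and at 13.2, 11.9 and 13.9 CPM in labelled knockouts. Mrps14 stood at 24.2, 23.6 and 25.4 CPM in controls and at 23.0, 24.8 and 25.3 CPM in labelled knockouts. The labelled knockouts of these genes lay within or across the control range, and the log2 fold changes of Mrpl33, Mrps34 and Mrps14 were -0.00204 (SE 0.0698), 0.00654 (SE 0.0939) and -0.0109 (SE 0.0660). Mrps34 shares 763 exon bases with Nme3 on the same strand and 1309 with Mapk8ip3 on the opposite strand, so its counts may hold reads of those genes. Mrpl33 shares 261 exon bases with Gm43809 on the same strand, so its counts may hold reads of that gene.

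Mrps10 stood at 11.7, 12.5 and 14.2 CPM in controls and at 12.1, 11.2 and 13.02 CPM in labelled knockouts, and Mrpl11, whose bacterial homolog forms the base of the ribosomal stalk, had group means of 32.1 and 31.1 CPM. Their log2 fold changes were -0.07 and -0.05. Mrpl27 had means of 19.1 and 17.4 CPM and Mrpl52 means of 24.5 and 21.5 CPM, with log2 fold changes of -0.15 (adjusted p 0.146 by edgeR) and -0.19 (adjusted p 0.0622). Mrpl52 passed without control replicate 3 (adjusted p 0.0311) and without knockout replicate 3 (0.0307). Mrpl12, whose bacterial homolog forms the mobile stalk that recruits translation factors, differed from the others in its spread. It stood at 31.8, 28.5 and 51.1 CPM in controls and at 32.2, 18.3 and 33.1 CPM in labelled knockouts. Each group held 1 library far from the other two, and the log2 fold change of -0.40 carried an SE of 0.212 and an adjusted p of 0.153 by edgeR. It was -0.09 without control replicate 3, -0.20 without knockout replicate 2, -0.12 without the 3 libraries near 0 and -0.01 with the Y-linked covariate.

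The ratio of large- to small-subunit RNA differed little between the groups. Summed over the 49 Mrpl genes, the level was 1911, 1816 and 1855 CPM in controls and 1268, 1376 and 1341 CPM in labelled knockouts. Summed over the 29 Mrps genes, it was 916, 883 and 900 CPM in controls and 606, 646 and 649 CPM in labelled knockouts. Both sums were lower in every labelled knockout, at 71.4% of the control mean for Mrpl and 70.5% for Mrps. The Mrpl sum divided by the Mrps sum was 2.087, 2.057 and 2.061 in controls and 2.092, 2.131 and 2.064 in labelled knockouts, with means of 2.068 ± 0.0164 and 2.096 ± 0.0333 (SD, n = 3). The mean ratios differed by 0.0273 and the groups overlapped, knockout replicate 3 lying below control replicate 1. Counted by place in the ribosome, with Mrps18a and Mrps30 in the large subunit and Mrps36 left out, the ratio was 2.376 ± 0.0264 and 2.400 ± 0.0407. Without Mrpl42 and Mrps21, the members of highest level, it was 2.039 ± 0.0239 in controls and 2.127 ± 0.0365 in labelled knockouts, which did not overlap. In the deposited RPKM, a scale per length on which the median log2 ratio of all genes stood at 0.16, the sums were 79.8% and 79.7% of control and the ratio was 2.021 ± 0.00981 and 2.026 ± 0.0345.

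**Figure D3:**
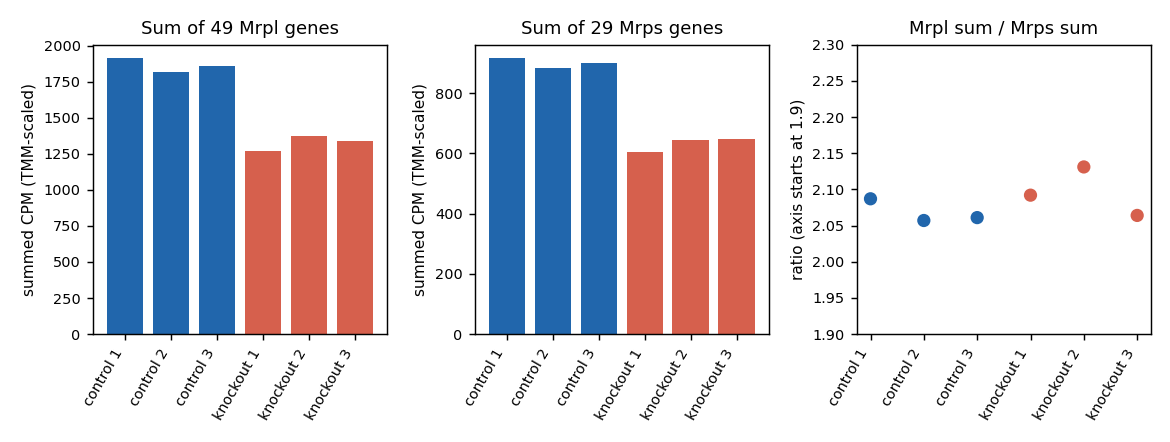
Summed TMM-scaled CPM of the 49 Mrpl genes (left) and the 29 Mrps genes (middle) in each library, and the first sum divided by the second (right; its axis starts at 1.9). Controls are blue and labelled knockouts red; both sums fall to about 71% of control, while the ratios of the groups overlap between 2.064 and 2.087.

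The fall was spread over kinds of member. By place, 45 of 51 large-subunit and 21 of 26 small-subunit genes fell, with median log2 fold changes of -0.41 and -0.48. Members were also parted by whether their protein takes the place of a bacterial one in the ribosome; Mrps18a and Mrps18b, although related to a bacterial protein by sequence, sit at places of their own and were counted as lacking a counterpart, and Mrps36 was left out. Of the 46 members with a bacterial counterpart 38 fell, with a median of -0.43, and of the 31 without one 28 fell, with a median of -0.44. The 10 small-subunit genes without a counterpart, Mrps18b among them, had a median of -0.63, the 16 small-subunit genes with one -0.44, and the 19 Mrpl genes without one -0.41. These medians were not tested against each other.

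Ordered by control level per length, 20 of the 26 lowest members fell, 25 of the middle 26 and 22 of the highest 26, with medians of -0.40, -0.47 and -0.49. Across the 78 members, which share libraries, the log2 fold change had a Pearson r of -0.26 and a Spearman rho of -0.18 with log2 control RPKM, an r of -0.07 and a rho of -0.20 with log2 length, and an r of 0.04 and a rho of 0.10 with GC content. With GC content the subunits went opposite ways, at r of -0.15 and rho of -0.10 over the 49 Mrpl genes and r of 0.31 and rho of 0.40 over the 29 Mrps genes. Exons of 33 members overlap another GENCODE gene, and 27 of these fell with a median of -0.38, while 40 of the 45 others fell with a median of -0.48.

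**Figure D4:**
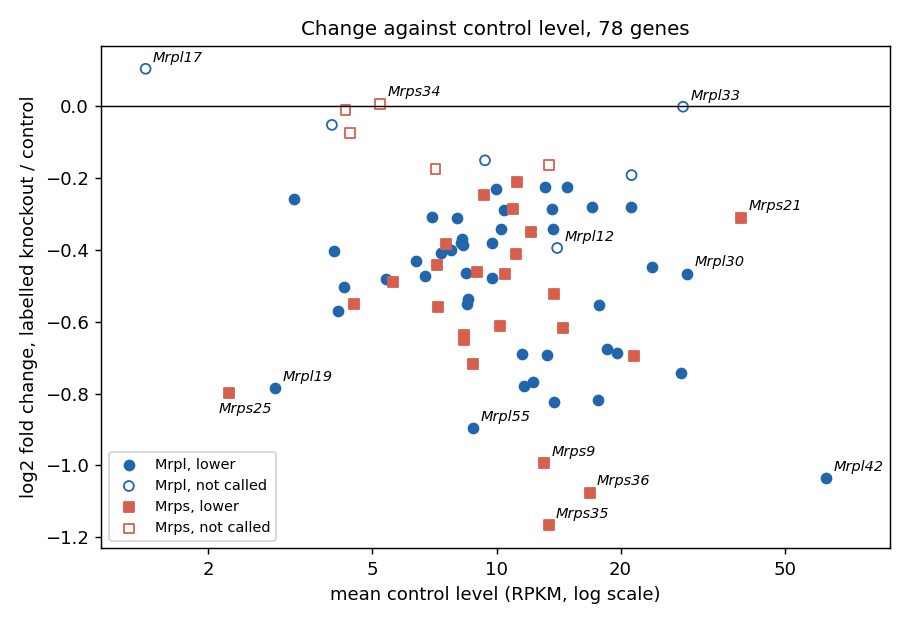
Log2 fold change (y axis, labelled knockout over control) against mean control level (x axis, RPKM, log scale) of the 78 members; circles are Mrpl, squares are Mrps, and open symbols did not pass the test. Members that fell are found from 2.25 RPKM (Mrps25) to 63.1 RPKM (Mrpl42).

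At the level of transcripts, 14 members had more than one, and reads matching several were shared out by estimation. Of the member transcripts tested, 37 of 56 Mrpl and 22 of 39 Mrps transcripts fell by edgeR, against 11.8% of all 21591 transcripts tested. Both Mrps36 isoforms fell, NM_025369 by 0.92 on the log2 scale (edgeR adjusted p 0.000325) and NM_001190264 by 1.88 (adjusted p 0.0251). Of Mrpl48, the coding transcript NM_198831 fell by 0.67 (adjusted p 0.00882 by edgeR), while the noncoding NR_003559 had a log2 fold change of 0.13 (adjusted p 0.739). The mean share of NM_198831 in the gene's counts was 65.4% in controls and 52.2% in labelled knockouts. Its share was nearly the same in control replicate 2 (counts of 261.3 and 195.7) and knockout replicate 1 (493.3 and 361.7). The difference in share was not tested. In the authors' deposited table, 28 of 60 Mrpl and 19 of 41 Mrps transcripts have an FDR under 0.05, and all of these have a lower mean RPKM in the labelled knockouts. The share of all transcripts of that table under the same FDR was not counted.

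Mitoribosomal proteins with other symbols are Dap3, Ptcd3, Aurkaip1 and Chchd1 of the small and Gadd45gip1 of the large subunit, and 4 of these 5 fell. Ptcd3, an RNA-binding pentatricopeptide protein, stood at 130.2, 128.7 and 131.1 CPM in controls and at 72.7, 77.0 and 73.4 CPM in labelled knockouts. Its groups were far apart, and the log2 fold change was -0.81 (SE 0.0413; adjusted p 7.46e-09 by edgeR). Dap3, a GTP-binding protein, fell by 0.51 on the log2 scale (edgeR adjusted p 1.63e-05), Gadd45gip1 by 0.52 (1.13e-05) and Aurkaip1 by 0.25 (0.00389). Chchd1 had a log2 fold change of -0.10 (adjusted p 0.257).

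Of 27 genes for assembly of the mitoribosome, 13 fell and none rose, at a median log2 fold change of -0.28. By adjusted p the first 4 were Mrm3 (-1.22, adjusted p 6.82e-07 by edgeR), Mrm1 (-0.86, 1.09e-06), Nsun4 (-0.56, 7.75e-06) and Mettl15 (-0.49, 0.000703), all methyltransferases of mitochondrial ribosomal RNA. Of the same kind of enzyme, Mrm2 fell by 0.64 on the log2 scale and Tfb1m was not called, at -0.14 (edgeR adjusted p 0.240); both were named after their values were seen. Of 17 genes for mitochondrial translation, 13 fell and none rose, with a median of -0.52. The elongation factors Tufm and Gfm1 fell by 1.06 and 1.12 on the log2 scale, the mitochondrial mRNA-binding protein Lrpprc by 0.99 and the membrane insertase Oxa1l by 1.02, with adjusted p from 9.11e-10 to 1.55e-08 by edgeR. For comparison, 37 genes were taken by symbols given to complex I subunits (Ndufa, Ndufb, Ndufc, Ndufs or Ndufv and a digit). Whether each encodes a complex I subunit was not checked. Of these 35 fell and 1 rose, with a median of -0.98. Of 84 cytosolic ribosomal protein genes, 51 rose and 1 fell, with a median of 0.13. These differences between lists were not tested.

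**Figure D5:**
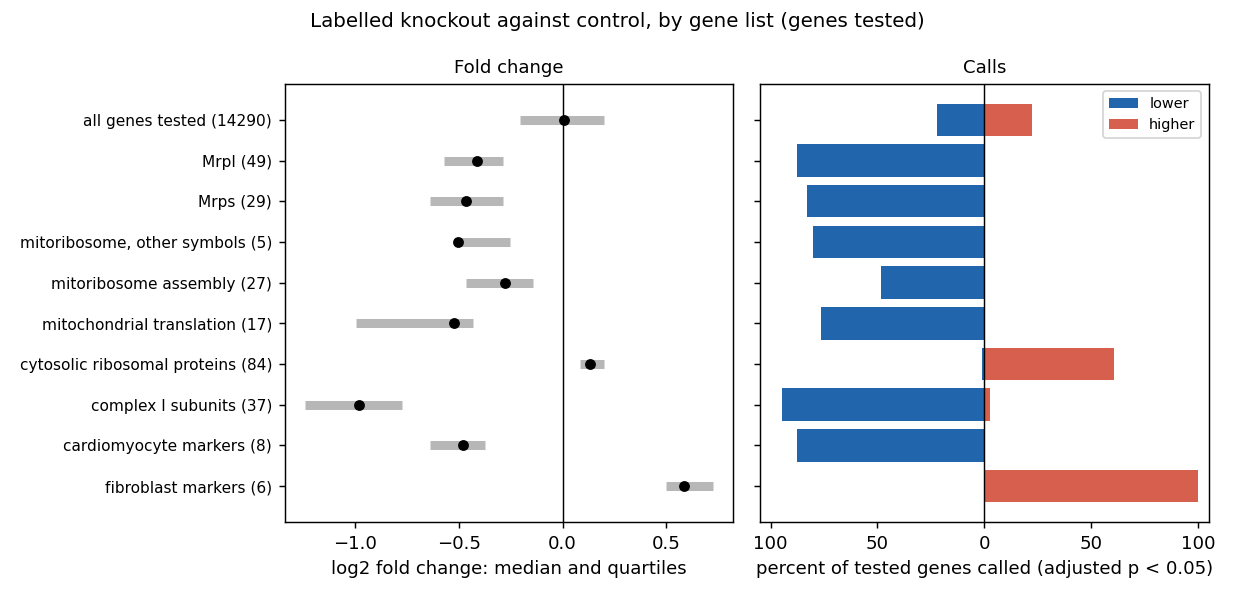
Median (point) and quartiles (bar) of the log2 fold change of each gene list (left), and the percent of its tested genes that fell (blue, to the left of 0) or rose (red, to the right) at an adjusted p of 0.05 by edgeR (right). The number of genes tested stands in brackets, and the list of complex I subunits was taken by symbol. The Mrpl and Mrps medians of -0.41 and -0.47 lie between those of all genes (0.00773) and of that list (-0.98).

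Markers of cardiomyocytes and fibroblasts differed between the groups, while lists of other cell types were mixed or mostly not called. Of 8 cardiomyocyte markers 7 fell, and their summed level was 125360 to 129860 CPM in controls and 96944 to 108630 CPM in labelled knockouts, with a median log2 fold change of -0.48. All 6 fibroblast markers rose, from a summed 4291 to 4496 CPM in controls to 5956 to 6789 CPM in labelled knockouts. Of 6 endothelial markers 3 fell and 2 rose, and 2 of 5 pericyte and smooth muscle markers fell. Of the epicardial markers 2 of 5 rose, of the macrophage markers 2 of 6 and of the atrial markers 2 of 5. None of the 8 erythroid markers was called. Over all genes tested, 22.0% fell and 22.4% rose. The part of such shifts in the members' fall was not tested.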

How the data were processed

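Total RNA was sequenced as single-end reads; the labels' protocols name both a stranded kit after ribosomal RNA depletion and another RNA kit of the same maker. TopHat2 2.0, Partek 6.6, DESeq and the mm10 genome are named, per the submitters' processing notes; what each was used for and whether strand entered the counting is not given in the sources used here. The deposited table gives estimated counts per transcript, which need not be whole (51.0% to 53.2% of a library's values were not), and RPKM, in which the authors divided counts by transcript length and by a library total. The deposited table also holds the authors' own fold (other) and p-value columns, used only where that table is named. The deposited mapping summary gives whole-number read counts and percent of reads in exons, introns and between genes; 95.2% to 98.6% of reads were mapped.

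Estimated counts were summed per symbol over 30031 transcripts, 58 of whose symbols were restored from spreadsheet dates, and rounded. In R 4.3.3, edgeR 4.0.16 (quasi-likelihood test, two-sided, TMM scaling, genes kept by filterByExpr at its minimum count of 10, total 15) was fitted to all 6 libraries, with p-values of 14290 genes adjusted together by Benjamini-Hochberg and 0.05 as threshold. CPM values are TMM-scaled unless the raw total is named. Biological variation was 5.58%, a count of 0 allows up to 0.0918 to 0.234 CPM (3 counts, counting error only), and the members' counts per library ran from 124 to 2076. Litters of the pooled hearts (2 a library) are not named in the labels, and p-values measure the spread between these samples.

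Figures were made with matplotlib 3.10.9. The members, lists and the rule for named genes were chosen with earlier results of these data known. The rule names Esrra, Esrrg, Esrrb and Nkx2-5; per subunit the 5 lowest and 3 highest fold changes and the 2 highest control levels; the Mrps18 paralogs; every member that did not pass; the mitoribosomal proteins with other symbols; and the leading assembly and translation genes. Alternatives tried were DESeq2 1.42.0, voom in limma 3.58.1, further scalings, no filter, robust dispersion, transcripts, GC and length trends, thinned counts, sex-linked levels, a replicate block and leaving out each library. Replicate numbers do not pair the libraries by the labels.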

Additional observations from a re-analysis of the deposited data

Results flagged for a closer look

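The share of reads within introns, a column of the mapping summary that enters no comparison of genes, averaged 40.3% ± 1.62 in the labelled knockout libraries and 37.9% ± 1.16 in controls (SD, n = 3), and every labelled knockout lay above every control. Reads fully within exons also made up a larger share, 39.2% ± 1.53 against 36.4% ± 0.818, and reads between genes a smaller one, 19.8% against 24.9% (each labelled knockout lay below each control). Their part in the members' fall was not tested.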

How the results depend on the processing

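In all 18 other fits of gene sums no member rose, and 47 of the 67 members that fell (30 Mrpl, 17 Mrps) fell in every one. The count of all genes was 3404 with the Y-linked covariate and 3645 without the 3 libraries near 0. The Mrpl median went to -0.363 with the length trend removed. The Mrps median was -0.390 with the length trend removed, -0.408 with GC and length trends removed, -0.446 with the Y-linked covariate, -0.436 when the 3 libraries near 0 were left out, and -0.445 to -0.517 leaving out single libraries. The ratio of the sums differed by 0.00433 in RPKM, by 0.0880 without the highest members, and by 0.00967 (without knockout replicate 2) to 0.0432 leaving out single libraries. Nkx2-5 was at -0.282 with the Y-linked covariate (adjusted p 0.0620 by edgeR). With the replicate block, 43 Mrpl and 23 Mrps genes fell, 6410 genes passed and Mrpl12 passed (adjusted p 0.0149 by edgeR). To look for pairs, each gene's log CPM was taken as its deviation from the mean of its group. These deviations correlated at -0.00552, -0.0152 and 0.104 between same-numbered libraries, so the numbers are not taken as pairs.

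Sign changes were limited to members that did not pass, and the cause was not tested. Mrpl33 was at 0.00276 with upper-quartile scaling, 0.109 with the length trend removed, 0.0877 with GC and length trends removed, 0.0223 with thinned counts, 0.184 with the Y-linked covariate and 0.194 when those 3 libraries were left out. Mrps14 was at 0.0131 with the length trend removed, 0.00258 with thinned counts, 0.0655 with the covariate and 0.0869 without the 3 libraries. Mrps34 was at -0.0669, -0.153 and -0.133 under the last 3 of these settings and at -0.00209 in DESeq2. Mrps10 was at 0.0133 with the length trend removed and Mrpl27 at 0.000355 without the 3 libraries. Leaving out single libraries gave ranges of -0.0600 to 0.0571 for Mrpl33, -0.0456 to 0.0403 for Mrps14, -0.143 to 0.0119 for Mrps10, -0.0972 to 0.00385 for Mrpl11 and -0.0622 to 0.0625 for Mrps34.

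Exon overlaps and unknown strand use limit single members; pooled hearts and 3 libraries a group limit the precision of all.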
